A study of Homo sapiens with 6 samples.

Results

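The O-glycan core and branch enzymes are 10 genes whose products serve the cores, branches and chains of mucin-type O-glycans. These are GCNT1, GCNT2, GCNT3, C1GALT1, C1GALT1C1, B3GNT2, B3GNT3, B4GALT1, B4GALT4 and FUT4. For brevity all 10 are called enzymes, although C1GALT1C1 encodes a chaperone. They were taken by their symbols, and all 10 were found by Entrez identifier among the 12703 genes with deposited counts. PC3 is a widely used human line of prostate cancer cells that grew from a metastasis in bone. The study compared 3 PC3 lines made to overexpress GCNT1 stably by lentiviral transduction with 3 PC3 lines given negative-control particles (Lenti-ORF control), both grown with no further treatment named in the labels. All 6 lines therefore carry an integrated lentiviral vector, whose promoter is not given in the sources used here, and each gave 1 stranded mRNA library. The labels call the 3 lines of a group biological replicates. Nothing says whether they came from separate transductions, so p values measure the spread between these libraries.

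O-glycosylation starts when a GALNT enzyme adds N-acetylgalactosamine to a serine or threonine in the Golgi. T-synthase, encoded by C1GALT1, adds galactose to give the core 1 structure, and it folds only with the help of its dedicated chaperone Cosmc, encoded by C1GALT1C1. GCNT1 and GCNT3 add N-acetylglucosamine to core 1, which opens the core 2 branch. That branch is then lengthened by B3GNT and B4GALT enzymes, which alternate N-acetylglucosamine and galactose, and it can be decorated with fucose by FUT4 or capped with sialic acid. Branched O-glycans that end in sialyl Lewis X are ligands of selectins and are studied in prostate cancer for that reason.

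The deposited counts summed to between 11392213 and 13825704 per library. No pair of libraries within a group was alike to within sampling noise (chi-square over degrees of freedom 1.65 to 5.61), and all 6 entered as separate samples. All 7 epithelial and PC3 markers that were checked had counts, from 51 to 19331 per library, and their summed level was 3204 to 3384 CPM (counts scaled to a common library total) in controls and 3132 to 3352 CPM with overexpression. Of these 7, KRT19 fell, from 369 to 230 CPM, and 3 more passed at the adjusted p alone, HOXB13 and KRT18 with lower and VIM with higher levels. Of 9 markers of leukocytes, endothelium, fibroblasts and neuroendocrine cells, 5 were not analysed here (PTPRC, CD3E, CDH5, DCN and CHGA), and the other 4 summed to 101 to 115 CPM in controls and 94.1 to 104 CPM with overexpression. CD68 made up most of this sum, and a lncRNA gene covers 81.6% of its exon sequence on the same strand. Of the other 3, PECAM1 rose from 18 to 24 counts per control library to 54 to 60, COL1A1 and SYP fell, and their part in the results was not tested.

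All levels are counts scaled to CPM with edgeR's TMM factors. A gene was called, and is said to have risen or fallen, when the Benjamini-Hochberg adjusted p value of edgeR's quasi-likelihood test was under 0.05 and the log2 fold change was at least 0.58 in size. Of the 10 enzymes, 2 were called, both higher, against 19.3% of all 12703 genes tested and 8.28% called higher. These 2 were GCNT1, which the design set out to raise, and GCNT3, the only called enzyme that was not targeted. At the adjusted p value alone, 9 enzymes passed, 7 with a higher level in GCNT1 overexpressing cells, GCNT1 among them, and 2 with a lower level. The shares of all genes were 57.6%, with 28.3% higher and 29.3% lower. These splits moved with the scaling. With plain library sizes 1283 genes were called higher and 1230 lower, in place of 1052 and 1405. When plain library sizes replaced the TMM factors, 8 enzymes passed with a higher and 1 with a lower level, against 33.8% and 24.8% of all genes. DESeq2 passed 7, 6 higher and 1 lower, against 24.2% and 25.8% of all genes. Over each library left out 7 to 9 passed, against 24% to 28.4% of all genes higher and 25.6% to 29.5% lower. The median log2 fold change of the 10 enzymes was 0.33, against 0.00 for all genes. In such bulk RNA, a change in every cell and a change in the share of cells that express a gene cannot be told apart, nor can fewer cells of a type and less RNA per cell.

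**Figure D1:**
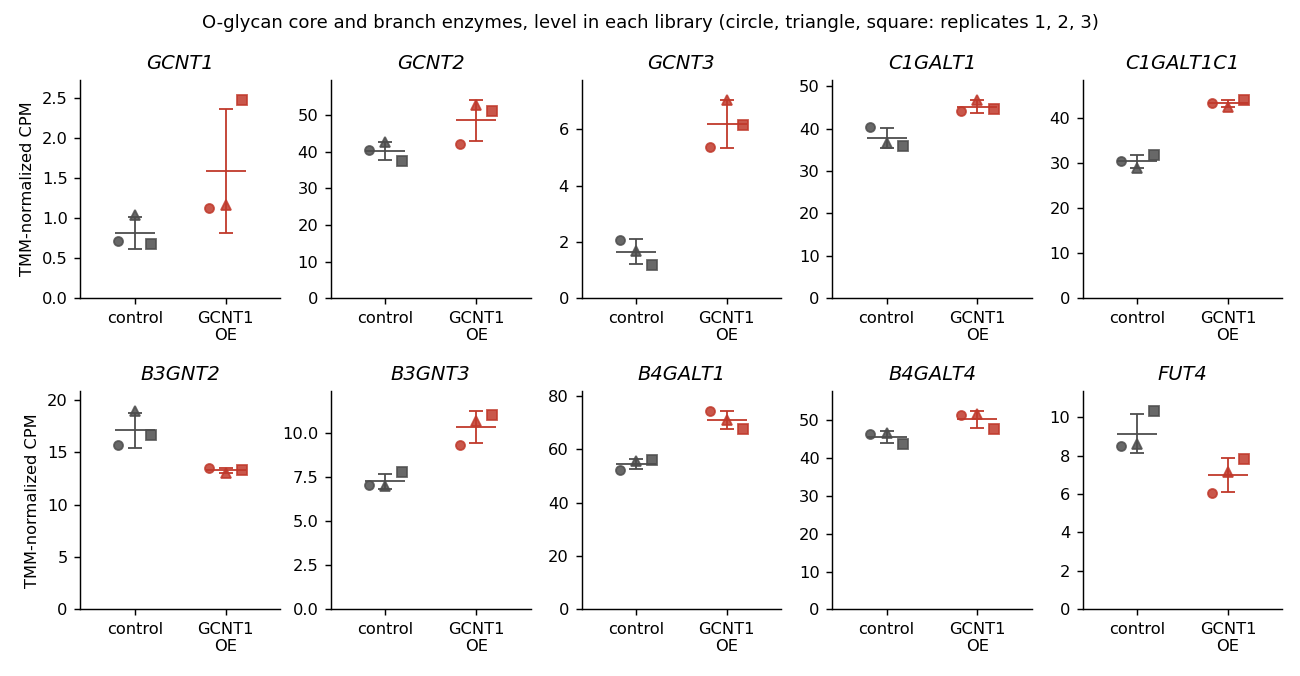
Level of each of the 10 enzymes in the 6 libraries, in TMM-normalized CPM on axes that start at 0. Points are libraries (circle, triangle and square for replicates 1, 2 and 3), and the horizontal line and bars give the mean and SD of the 3 libraries. GCNT3 shows the widest relative gap between the groups, 1.18 to 2.07 CPM against 5.36 to 7.06 CPM, while 1 of the 3 GCNT1 points of the overexpressing cells stands well above the other 2.

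GCNT1, the targeted gene (Entrez identifier 2650, chromosome 9, 76393869 to 76507416 in hg38), makes the core 2 branch. It was counted 9, 13 and 8 times in control libraries 1 to 3 and 13, 16 and 35 times in overexpressing libraries 1 to 3. Scaled for depth, this is 0.715, 1.04 and 0.677 CPM against 1.123, 1.165 and 2.48 CPM, so that the groups did not overlap but the gap between control library 2 and overexpressing library 1 was narrow. At such counts the exact 95% Poisson interval is wide, 6.92 to 22.2 counts for the 13 counts of overexpressing library 1 and 24.4 to 48.7 counts for the 35 counts of library 3, and it covers counting error only. Its mean CPM stood at percentile 2.72 of all genes analysed. In CPM on plain library totals, without TMM factors, the third-highest library of every gene in the table had at least 1.01 CPM. GCNT1 reached this through the overexpressing libraries and not through the controls alone, so that its place in the table is not independent of the difference tested. It rose by a log2 fold change of 0.98 (standard error, SE, 0.37, 95% confidence interval 0.18 to 1.79, adjusted p = 0.0362, edgeR quasi-likelihood test). The call was lost without control replicate 1 (log2 fold change 0.91, adjusted p = 0.0920), without control replicate 3 (0.88, adjusted p = 0.0944) and without overexpression replicate 3 (0.49, adjusted p = 0.269, edgeR). DESeq2 gave an adjusted p of 0.0821, while limma-voom kept the call (log2 fold change 0.88, adjusted p = 0.0477). The paper also examined GCNT1 in PC3 cells with overexpression by real-time PCR, sandwich ELISA and immunocytochemistry, which these counts do not cover. Reads from the lentiviral reading frame and from the gene itself cannot be told apart in these counts, nor can it be told whether reads from the reading frame were counted on the gene at all. The coding sequence of 1284 bases (without the stop codon) lies in 1 exon, and exons of PRUNE2 cover 2.83% of the exon sequence of GCNT1 on the opposite strand.

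GCNT3 (Entrez identifier 9245, chromosome 15, 59611783 to 59622723) encodes the mucin-type enzyme, which makes core 2 and core 4 branches and can also branch lactosamine chains. It showed the largest change among the 10 enzymes. Its counts were 26, 21 and 14 in the control libraries against 62, 97 and 87 in the overexpressing ones. The lowest overexpressing library lay above the highest control library with its whole 95% Poisson interval (4.11 to 6.87 CPM against 1.35 to 3.03 CPM). Its level went from 1.65 ± 0.442 CPM (SD, n = 3) to 6.20 ± 0.853 CPM (SD, n = 3). GCNT3 rose 3.75-fold, or by 1.91 on the log2 scale (SE 0.20, 95% confidence interval 1.47 to 2.35, adjusted p = 4.26e-06, edgeR quasi-likelihood test). It stayed called in all 6 fits that left out 1 library, with log2 fold changes from 1.73 to 2.11.

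Since GCNT3 rose in cells given extra GCNT1, the coding sequences of the pair were compared in hg38 to see how alike a read of 75 bases from one could be to the other. They were identical at 64.3% of 1233 aligned bases. The longest stretch they shared without a difference was 18 bases. The most alike stretch of read length had 61 of 75 bases in common. Both copies of that stretch are shown because they mark the closest approach of the paralogues, at chr9:76502727-76502801 and chr15:59618614-59618688, plus strand, read from the coding exon, with the 14 positions that differ in capitals.
GCNT1: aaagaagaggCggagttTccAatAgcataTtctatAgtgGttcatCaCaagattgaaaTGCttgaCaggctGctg
GCNT3: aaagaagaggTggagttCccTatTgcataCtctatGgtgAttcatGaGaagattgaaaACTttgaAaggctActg
Neither gene had another copy in the genome of at least 75 bases and 90% identity to its coding sequence. Only sequences of the genome were compared and no reads were examined. Whether reads of one gene or of the lentiviral reading frame were counted on the other gene was not tested.

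GCNT2 (Entrez identifier 2651, chromosome 6, 10521351 to 10629368) encodes the I-branching enzyme, which adds branches within lactosamine chains rather than to the core, and has alternative first exons whose transcripts the counts per gene do not separate. Its level was 40.6, 42.7 and 37.6 CPM in controls and 42.3, 52.7 and 51.1 CPM with overexpression. The groups overlapped, since overexpressing library 1 lay below control library 2. The log2 fold change was 0.28 (SE 0.08, adjusted p = 0.0132, edgeR), under the minimum for a call. The p threshold was missed without overexpression replicate 2 (adjusted p = 0.0553) and without overexpression replicate 3 (adjusted p = 0.0643, edgeR). GCNT3 was the only GCNT gene of the 3 analysed that was called in every fit that left out 1 library.

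C1GALT1 and its chaperone C1GALT1C1, which together make core 1, were both higher in GCNT1 overexpressing cells, the chaperone by more. C1GALT1 (Entrez identifier 56913, chromosome 7, 7157377 to 7248616) had 40.5, 36.7 and 36.0 CPM in controls and 44.1, 46.9 and 44.7 CPM with overexpression (log2 fold change 0.26, SE 0.07, adjusted p = 0.00468, edgeR). Its coding sequence has 2 processed pseudogene copies, C1GALT1P2 at 93.1% and C1GALT1P1 at 90.3% identity, and whether reads were shared with them was not tested. C1GALT1C1 (Entrez identifier 29071, chromosome X, 120625674 to 120630054) had 30.6, 28.8 and 31.8 CPM in controls and 43.3, 42.6 and 44.2 CPM with overexpression. All 3 overexpressing libraries were above all 3 controls, with means of 30.4 ± 1.495 and 43.3 ± 0.786 CPM (SD, n = 3 each). Its log2 fold change of 0.51 (SE 0.07, 95% confidence interval 0.37 to 0.65, adjusted p = 2.18e-05, edgeR) was below the minimum for a call but its interval reached across it.

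The enzymes that add N-acetylglucosamine to growing chains went in opposite directions. B3GNT2 (Entrez identifier 10678, chromosome 2, 62196115 to 62224731), the main enzyme of long lactosamine chains, whose coding sequence has 1 near copy of 109 bases on chromosome X, had 15.7, 19.0 and 16.7 CPM in controls and 13.5, 13.0 and 13.3 CPM with overexpression (log2 fold change -0.36, SE 0.09, adjusted p = 0.00500, edgeR). B3GNT3 (Entrez identifier 10331, chromosome 19, 17794791 to 17813576), which lengthens core 1, had 7.07, 6.99 and 7.78 CPM in controls and 9.33, 10.7 and 11.1 CPM with overexpression. The groups did not overlap in either gene. B3GNT3 had a log2 fold change of 0.52 (SE 0.11, adjusted p = 0.00171, edgeR) and crossed the minimum for a call in the fit without overexpression replicate 1, at 0.58 (adjusted p = 0.000512, edgeR).

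Of the galactosyltransferases that complete lactosamine units, B4GALT1 was higher and B4GALT4 did not pass. B4GALT1 (Entrez identifier 2683, chromosome 9, 33104077 to 33185089), the widely expressed enzyme of the family, had 52.4, 55.6 and 55.9 CPM in controls and 74.4, 71.0 and 67.5 CPM with overexpression. Its lowest overexpressing library was above every control, with a log2 fold change of 0.38 (SE 0.06, 95% confidence interval 0.25 to 0.51, adjusted p = 0.000143, edgeR). B4GALT4 (Entrez identifier 8702, chromosome 3, 119211742 to 119240878), which prefers sulfated acceptors, had 46.4, 46.6 and 43.7 CPM in controls and 51.4, 51.6 and 47.6 CPM with overexpression. Its log2 fold change was 0.14 (95% confidence interval 0.00 to 0.28, adjusted p = 0.0725, edgeR), and with library size in place of TMM it was 0.20 (adjusted p = 0.0166, edgeR).

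FUT4 (Entrez identifier 2526, chromosome 11, 94543921 to 94549895), a fucosyltransferase that makes the Lewis X group, had 8.502, 8.593 and 10.3 CPM in controls and 6.05, 7.13 and 7.80 CPM with overexpression. It was lower in every overexpressing library than in any control, with a log2 fold change of -0.37 (SE 0.13, adjusted p = 0.0262, edgeR). FUT4 did not pass without control replicate 3 (log2 fold change -0.28, adjusted p = 0.109), without overexpression replicate 1 (-0.29, adjusted p = 0.0760) or without overexpression replicate 2 (-0.38, adjusted p = 0.0538, edgeR). It did not pass with plain library sizes (adjusted p = 0.0533, edgeR) or under DESeq2 (adjusted p = 0.0719). Exons of PIWIL4 on the same strand cover 10.1% of its exon sequence and those of an antisense gene 10.9%, so that part of its counts is uncertain. In 9 of the 10 enzymes the groups did not overlap (7 higher, with the targeted GCNT1 among them, and 2 lower). The same held for 62.5% of all genes (30.9% higher, 31.6% lower). The exact two-sided permutation test of 3 libraries against 3 then gives p = 0.1, the smallest it can give.

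**Figure D2:**
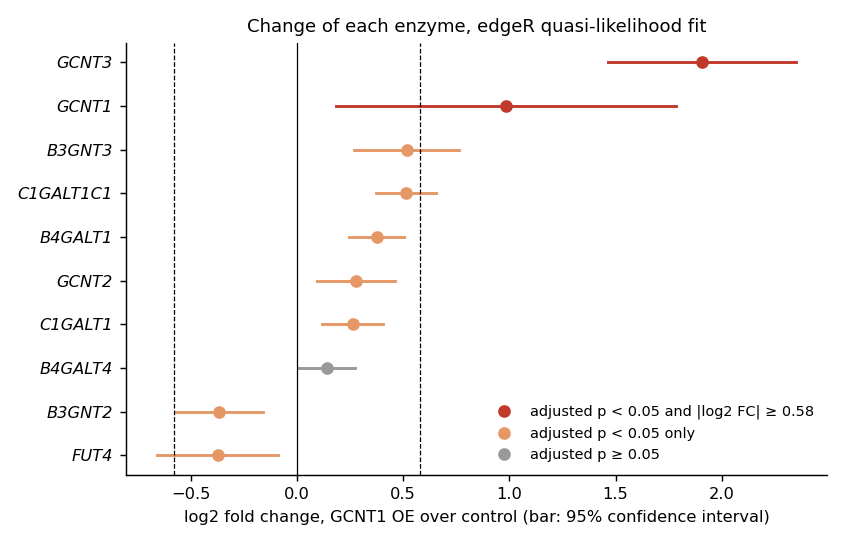
Log2 fold change of each enzyme in GCNT1 overexpressing over control cells with its 95% confidence interval from edgeR's quasi-likelihood fit, and dashed lines at the minimum of 0.58 in size. GCNT3 at 1.91 lies clear of the line with its whole interval, GCNT1 at 0.98 has the widest interval, and the other 8 enzymes lie between -0.37 and 0.52.

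Divided by the length of exon sequence in kilobases, the levels of the enzymes spanned a wide range. In controls C1GALT1C1 was highest with 16.8 ± 0.826 CPM per kb (SD, n = 3), followed by B4GALT1 with 11.2 ± 0.391 CPM per kb and B4GALT4 with 6.52 ± 0.235 CPM per kb. B3GNT2, C1GALT1 and GCNT2 followed, with means from 5.98 down to 4.38 CPM per kb, then B3GNT3 with 2.63 and FUT4 with 1.53 CPM per kb. The core 2 enzymes were the least abundant, GCNT3 with 0.254 ± 0.0683 and GCNT1 with 0.0878 ± 0.0218 CPM per kb (SD, n = 3 each). Of the neighbours in this order only B4GALT4 and B3GNT2 had libraries that overlapped.

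With overexpression the mean of B3GNT2 came below those of C1GALT1 and GCNT2, and the other means kept their order. The libraries of C1GALT1 overlapped with those of GCNT2, those of GCNT2 with those of B3GNT2, and those of FUT4 with those of GCNT3. GCNT1 was still last, with 0.121, 0.126 and 0.268 CPM per kb, and GCNT3 had 0.827, 1.09 and 0.952 CPM per kb. The ratio of GCNT3 to GCNT1 per kb was 4.13, 2.31 and 2.50 in controls and 6.81, 8.66 and 3.55 with overexpression at these lengths. The length of any lentiviral transcript counted on GCNT1 is not known, so that the order of this pair with overexpression holds only for the exon length of the gene. The chaperone C1GALT1C1 stood at 3.47 ± 0.284 times the level of C1GALT1 per kb in controls and at 4.12 ± 0.189 times with overexpression (SD, n = 3 each), and these ranges, 3.25 to 3.80 and 3.91 to 4.24, did not overlap. The order depended on the length used. With the lengths of the reference (MANE Select) transcripts only 4 of the 10 enzymes kept their place in controls. B4GALT4, at 2234 in place of 6988 bases, was then the highest, at 20.4 CPM per kb, and GCNT2 was above B3GNT2 in controls already, at 8.95 against 6.19 CPM per kb. With overexpression the mean of GCNT3 was then above that of FUT4, at 1.26 against 1.17 CPM per kb.

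**Figure D3:**
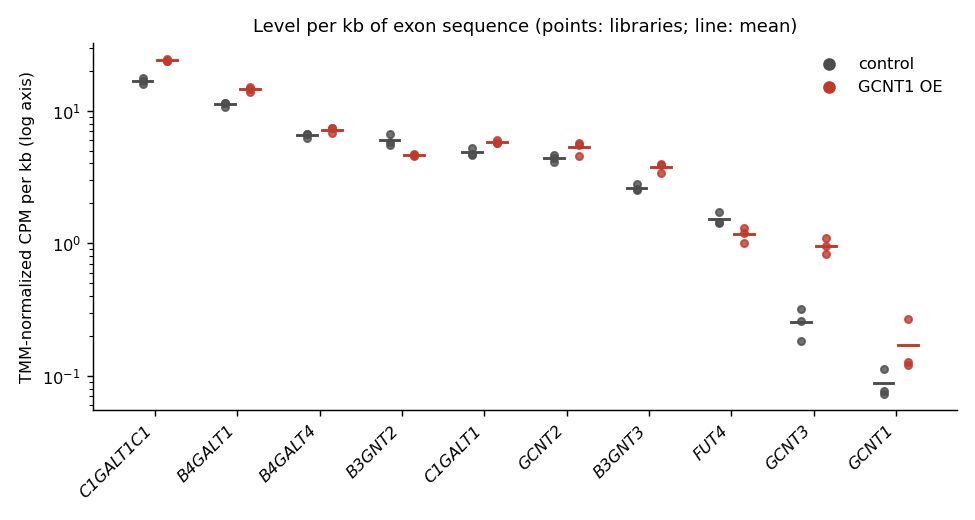
Level of each enzyme per kb of exon sequence (TMM-normalized CPM per kb, log axis), with 1 point per library and a line at the mean of 3 libraries, in the order of the controls. GCNT3 and GCNT1 lie lowest in controls, at means of 0.254 and 0.0878, and C1GALT1C1 is highest in both groups.

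Each enzyme was also set beside the 50 analysed genes nearest to it on its chromosome. B3GNT2 on chromosome 2 lay among genes with a median log2 fold change of -0.52, 18 of which fell and 2 of which rose, and it was itself less low than they were. The genes around C1GALT1 on chromosome 7 had a median of 0.41, above its own 0.26, and those around B4GALT4 a median of 0.21, above its own 0.14. FUT4, at -0.37, lay among genes with a median of -0.23, 11 of which fell and 3 of which rose. The genes around GCNT1 had a median of 0.30, and 10 of them rose and 5 fell, where 8.28% of all genes rose and 11.1% fell. The neighbours' median had the same sign as the enzyme in 9 of the 10 enzymes, all but B4GALT1, and its part in their values was not tested. GCNT3, B3GNT3, B4GALT1 and GCNT2 lay among genes with medians between -0.03 and 0.05, and relative to these they were higher by 1.88, 0.50, 0.41 and 0.22 on the log2 scale. GCNT1 was 0.69 and C1GALT1C1 0.39 above the median of their neighbours.

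**Figure D4:**
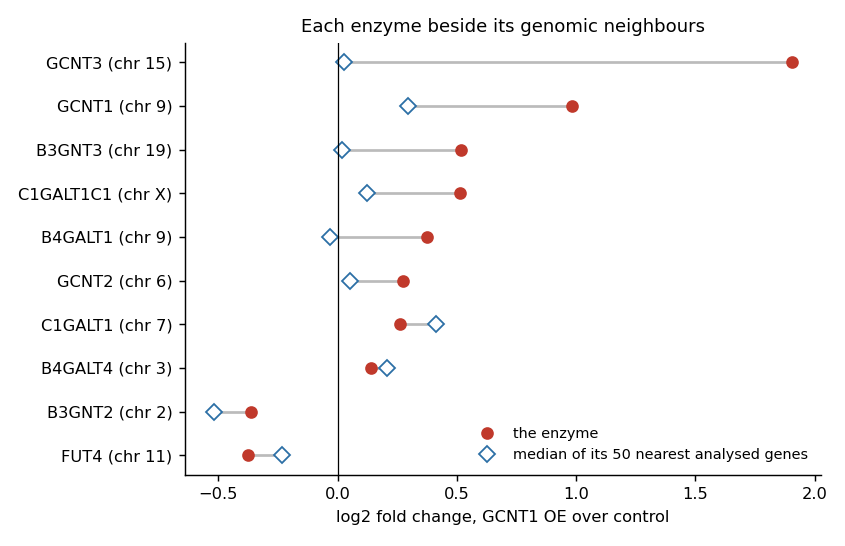
Log2 fold change of each enzyme (filled circle) and the median of its 50 nearest analysed genes (open diamond) on the same chromosome. GCNT3 stands 1.88 above its neighbours, while C1GALT1, B4GALT4 and B3GNT2 lie closer to 0 than theirs.

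The bases before the transcription start are shown for the 3 enzymes with the smallest adjusted p values, GCNT3, C1GALT1C1 and B4GALT1, which were all higher in overexpressing cells. They are 250 bases each from the RefSeq promoter table (GRCh38.p14), 5′ to 3′ on the strand of the gene, at chr15:59611533-59611782 on the plus strand, chrX:120630055-120630304 on the minus strand and chr9:33167337-33167586 on the minus strand (the first of 2 starts of B4GALT1). Capitals mark matches to the GC box GGGCGG, the TATA box TATAAA, the CCAAT box CCAAT and the E-box CACGTG on either strand.
GCNT3: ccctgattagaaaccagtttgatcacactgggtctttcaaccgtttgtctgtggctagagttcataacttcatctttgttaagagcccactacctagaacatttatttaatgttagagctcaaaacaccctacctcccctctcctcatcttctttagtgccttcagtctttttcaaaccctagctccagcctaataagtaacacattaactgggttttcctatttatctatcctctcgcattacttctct
C1GALT1C1: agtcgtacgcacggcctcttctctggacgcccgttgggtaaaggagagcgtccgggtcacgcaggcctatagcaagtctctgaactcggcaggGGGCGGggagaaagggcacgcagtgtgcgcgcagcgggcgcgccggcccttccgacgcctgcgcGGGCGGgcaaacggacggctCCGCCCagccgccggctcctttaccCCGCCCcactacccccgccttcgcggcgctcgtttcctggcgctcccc
B4GALT1: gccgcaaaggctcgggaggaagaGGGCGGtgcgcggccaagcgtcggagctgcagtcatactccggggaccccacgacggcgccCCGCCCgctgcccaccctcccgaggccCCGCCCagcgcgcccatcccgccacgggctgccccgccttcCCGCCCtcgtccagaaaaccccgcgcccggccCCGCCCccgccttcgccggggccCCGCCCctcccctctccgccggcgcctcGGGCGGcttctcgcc
The window of GCNT3 held none of the 4 motifs and 2 CpG dinucleotides. That of C1GALT1C1 held 4 GC boxes and 34 CpG dinucleotides, and that of B4GALT1 held 7 GC boxes and 36 CpG dinucleotides. Among 35116 promoter windows of this length the median was 11 CpG dinucleotides, a GC box was found in 42.6%, a TATA box in 10.7%, a CCAAT box in 32.0% and an E-box in 6.34%. These are matches of letters in 1 window per gene, and which start the cells used was not measured.

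Other genes of the pathway were taken from lists by role. None of 4 other core and branching genes (GCNT4, GCNT7, B3GNT6 and C1GALT1C1L) was analysed here. Of 9 other chain extension enzymes 3 were called, all lower, against 11.1% of all genes called lower. B3GNT7 and B3GNT4 reach the lowest level kept in the deposited table only through their control libraries, so that their place in it is not independent of the difference tested. B3GNT7, which lengthens sulfated lactosamine chains, had 42, 35 and 34 counts in the control libraries but 1, 3 and 5 in the overexpressing ones (adjusted p = 9.80e-07, edgeR), too few there for a fold change to be given. B3GNT4 fell with a log2 fold change of -1.75, from 16 to 18 counts per control library to 3 to 8. B3GALT5, which makes type 1 chains, fell with -0.88 from 10 to 23 counts to 6 to 14, ranges that overlapped (adjusted p = 0.0438, edgeR). Its call was lost under DESeq2 and limma-voom, with plain library sizes, and without control replicate 1, control replicate 2, overexpression replicate 1 or overexpression replicate 2, with log2 fold changes from -0.90 to -0.64 and adjusted p values from 0.0532 to 0.185, while those of B3GNT7 and B3GNT4 held in the same fits. B4GALT5, a more abundant relative of B4GALT1, had 132 ± 2.34 CPM in controls and 158 ± 7.03 CPM with overexpression (log2 fold change 0.26, adjusted p = 0.000627, edgeR).

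Both sulfotransferases that were analysed, of 8 listed, were called in opposite directions, against 8.28% of all genes called higher and 11.1% called lower. CHST2, which puts sulfate on N-acetylglucosamine of lactosamine chains, had 369, 394 and 397 counts in the control libraries but only 50, 61 and 52 in the overexpressing ones. Its level fell from 31.5 ± 2.13 to 4.15 ± 0.406 CPM (SD, n = 3 each), which is -2.93 on the log2 scale (SE 0.11, adjusted p = 1.45e-10, edgeR). GAL3ST4, which puts sulfate on galactose of O-glycans, had 33, 26 and 20 counts in the control libraries and rose to 61, 69 and 61 (log2 fold change 1.18, adjusted p = 0.000150, edgeR). The median over the 50 genes nearest to CHST2 was 0.08 and over those nearest to GAL3ST4 0.04 on the log2 scale, while 25 of the 50 nearest to B3GNT7 fell, with a median of -0.60.

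None of 3 other fucosyltransferases and none of 17 genes for sugar donors and their Golgi transport was called by edgeR, although 3 and 10 passed the adjusted p value alone and 3 and 12 had an unadjusted p under 0.05. For the donor genes this share was near the 57.6% of all genes that passed the adjusted p value alone, with 4 higher and 6 lower. DESeq2 and limma-voom also called 0 in both lists. FUT11 had the smallest p of the first list, with a log2 fold change of -0.43 (adjusted p = 7.80e-05, edgeR), and UGP2 that of the second. UGP2, GALK1 and GALT, which lead to activated glucose and galactose, passed with lower levels, at log2 fold changes of -0.57, -0.47 and -0.46. Exons of another gene on the same strand cover 39.7% of the exon sequence of GALT and 46.9% of that of SLC35D2. GMDS, the first enzyme of the main route to activated fucose, was lower at -0.54, and GFPT2 of the hexosamine pathway at -0.52. FCSK and NAGK, kinases of fucose and N-acetylglucosamine, passed with higher levels, at 0.38 and 0.21. FPGT, GFPT1, GNPNAT1, PGM3 and UAP1, which serve the same donors, did not pass, with values from -0.13 to 0.14. The Golgi transporters SLC35D2 and SLC35A2 passed with higher levels, at 0.56 and 0.30, while SLC35C1 at 0.15 and SLC35A3 at -0.19 did not pass. UGP2 lay among genes with a median of -0.37 and SLC35D2 among genes with a median of 0.42.

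At the start of the pathway 2 of 12 GALNT enzymes were called, both lower, against 19.3% of all genes called and 11.1% called lower, a share near that of all genes. GALNT12 went from 51, 41 and 53 counts to 3 in each overexpressing library. GALNT5 went from 28, 14 and 13 counts to 2 in each. Both are in the table only through their control libraries, and nothing is read from their count. At its end 2 of 8 sialyltransferases that cap O-glycans were called, both lower, which is 25% against the same 19.3% and 11.1% of all genes. ST3GAL1, which caps core 1 with sialic acid, fell from 707 ± 18.5 to 172 ± 9.998 CPM (SD, n = 3 each), and ST6GALNAC2, which adds sialic acid to the first sugar, from 44.8 ± 0.921 to 16.5 ± 1.21 CPM (SD, n = 3 each). Exons of another gene cover 39.8% of the exon sequence of ST6GALNAC2 on the same strand. The log2 fold changes were -2.04 and -1.44.

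**Figure D5:**
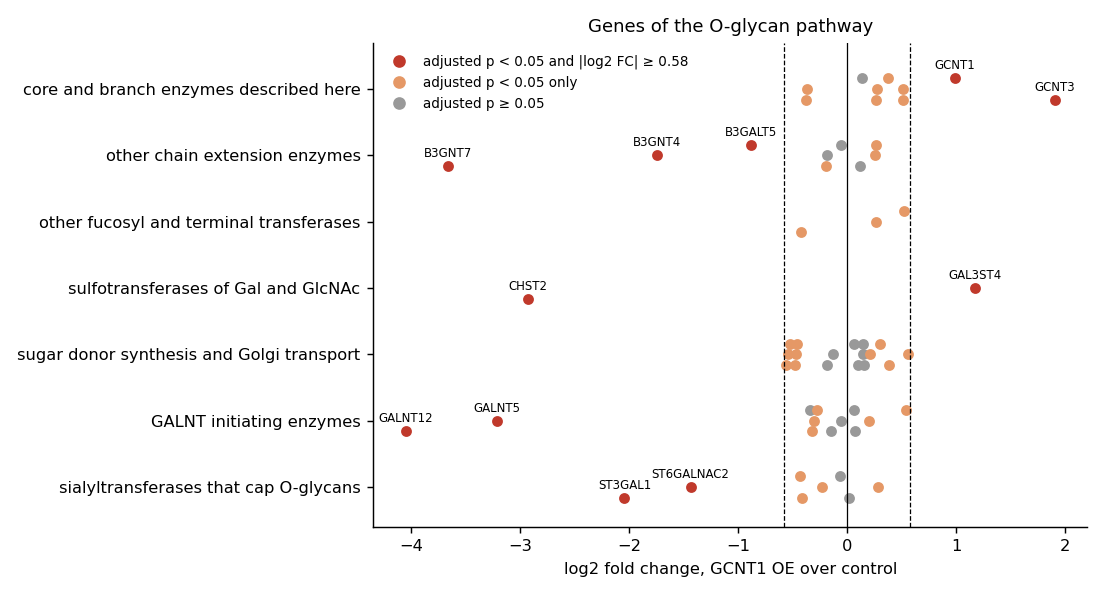
Log2 fold changes in GCNT1 overexpressing over control cells of the 10 enzymes and of the other analysed genes of the pathway, 1 point per gene, with dashed lines at 0.58 in size and called genes named. The called genes of the GALNT, sialyltransferase and chain extension lists lie to the left, beyond the lower dashed line, while GCNT1, GCNT3 and GAL3ST4 lie to the right. GALNT12, GALNT5, B3GNT7 and B3GNT4 were kept only through their control libraries, so nothing is read from the side on which they lie. GCNT1 was kept through the overexpressing libraries.

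By the Pearson correlation of log2 CPM over the 6 libraries, the genes most like GCNT3 were PPARGC1B, CDC26 and ERBIN (r = 0.999, 0.999 and 0.998), and those most like GCNT1 were DUSP12, SHANK3 and FUBP3 (r = 0.991, 0.985 and 0.983). The points share library depth and the difference between the groups, and no test was made. Of the 6 genes only PPARGC1B was called (log2 fold change 0.68).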

How the data were processed

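The deposited table holds raw read counts per gene by Entrez identifier, 1 column per library. The authors obtained single reads, which were trimmed (Cutadapt), aligned to hg38 (HISAT2) and assigned to genes (featureCounts). The annotation and strand setting are not given in the sources used here. On plain library totals, without TMM factors, the lowest value of any gene's third-highest library was 1.01 CPM.

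Groups and replicate numbers came from the sample titles. Counts were tested in R 4.3.3 with edgeR 4.0.16 (filterByExpr, which kept all 12703 genes, TMM, quasi-likelihood fit of 2 groups, Benjamini-Hochberg adjustment). Standard errors were taken from the fitted coefficient and its F value. limma 3.58.1 (voom), DESeq2 1.42.0, other factors, filters, a replicate block and each library left out were alternatives. The fits were tested on simulated counts. Numbers did not pair the libraries: deviations of same-numbered libraries correlated at -0.273 to -0.00240 across genes.

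The members and lists were chosen with earlier results of these data known. Named genes were all members, the called genes of each list or, with none called, that of smallest p, and the 3 genes most correlated (prior count 2) with GCNT1 and with the other called member. Donor and fucosyltransferase genes named beyond that, B4GALT5, the Golgi transporters and PECAM1, COL1A1 and SYP were chosen after their values were seen. Some genes of the lists are not reported here. Positions of genes are those of RefSeq, exon lengths and overlaps those of GENCODE 44 (protein-coding and lncRNA genes). Coding sequences were searched in hg38, without alternative sequences, with BLAST+ 2.17.0 and aligned with biopython 1.88. A floor of 3 counts is 0.217 to 0.263 CPM.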

Additional observations from a re-analysis of the deposited data

How the results depend on the processing

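Of 169 alternative values of single enzymes, 153 kept their direction and their side of the call, and GCNT3 kept both in all 17. GCNT1 had 0.98 under DESeq2 (adjusted p = 0.0821) and under a single test against 0.58 (glmTreat, adjusted p = 0.396) and was no longer called; over each library left out it ranged from 0.49 to 1.21. It could not be fitted with at least 10 counts in every library. With the adjusted p alone as the call, GCNT2 (0.28), C1GALT1 (0.26), C1GALT1C1 (0.51), B3GNT2 (-0.36), B3GNT3 (0.52), B4GALT1 (0.38) and FUT4 (-0.37) were called too. B3GNT3 ranged from 0.47 to 0.58 over each library left out and was called at the highest value. Relative to the 50 nearest genes, C1GALT1 turned to -0.15, B3GNT2 to 0.15 and B4GALT4 to -0.069.

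The number of enzymes called, 2, was 1 under DESeq2, at 10 counts in every library and under glmTreat, 9 with the adjusted p alone and 1 to 3 over each library left out (1 without control replicate 1, control replicate 3 or overexpression replicate 3). The number of all genes called, 2457, was 1392 under glmTreat and 7314 with the adjusted p alone. At 10 counts in every library no chain extension enzyme and no GALNT enzyme was called (0 in each), since that filter removes genes that fell to low counts. With the adjusted p alone 6 chain extension enzymes, 3 fucosyltransferases, 10 donor genes, 7 GALNT enzymes and 6 sialyltransferases were called. With library size alone 1 fucosyltransferase and 1 donor gene were called, and over each library left out 0 to 1 and 0 to 2. Library size moved the median of all genes by 0.06 on the log2 scale. With the length of the reference transcript, an alternative chosen after seeing the data, 4 of the 10 enzymes kept their place in the order of levels. Except where a filter or a fold minimum gives it, the cause was not tested. The replicate block left the log2 fold change of GCNT1 at 0.94 (adjusted p = 0.0461, edgeR) and of GCNT3 at 1.91, and changed no call among the 10 enzymes, but B3GALT5 was no longer called (-0.87, adjusted p = 0.0774, edgeR). Among the 10 enzymes GCNT1 had the fewest counts, 8 to 35 per library.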
